A study of Mus musculus with 6 samples.

Results

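The genes described here are 10 efferocytosis receptors and bridging molecules, a fixed list of symbols chosen with earlier results of these data known. The receptor tyrosine kinases are Mertk, Axl and Tyro3, and the bridging molecules are Gas6, Pros1 and Mfge8. The phosphatidylserine receptors are Timd4, Havcr2 and Cd300lf, and Anxa1 is an annexin. All 10 had probes among the 20018 gene symbols that could be named on the arrays, with 14 probes in all, and 9 of them were bright enough to be tested. Messenger RNA was measured on 6 one-colour Agilent arrays of macrophages grown from C57BL/6 mouse bone marrow for 5 days in medium with 10% serum and 10 ng/mL GM-CSF, the granulocyte-macrophage colony-stimulating factor. The 3 wild-type mice (WT 1, 2 and 3) and the 3 Bach1 knockout mice (KO 947, 948 and 949) were 11 weeks old, with 2 labelled male and 1 labelled female in each genotype. Each numbered sample is counted as 1 mouse here, though the labels do not say how cultures were kept apart. Bach1 is a heme-binding transcriptional repressor, and the comparison asks how these genes differ when it is absent. How the knockout allele was made and which part of Bach1 it removes is not known here. All cultures received GM-CSF, so no untreated or M-CSF-grown macrophages stand beside them.

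Efferocytosis is the engulfment of dying cells. A dying cell exposes the lipid phosphatidylserine on its surface, and a phagocyte binds it either directly, through receptors of the TIM and CD300 families, or through soluble bridging proteins. Gas6 and protein S link the lipid to the kinases Tyro3, Axl and Mertk (the TAM receptors), and Mfge8 links it to integrins. In macrophages these routes remove spent cells and dampen inflammatory signalling.

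Each level is the log2 of a probe's signal over the 75th percentile of its array, so that 0 is that percentile, and differences are KO minus WT on the same log2 scale. They come from a limma fit over 15736 genes, with p-values adjusted over all of them by the Benjamini-Hochberg method and a threshold of 0.05. Different probes bind with different strength, so levels are compared between mice and not between genes. The WT arrays shared a slide with KO 947, while KO 948 and 949 were on a different one. Between 70.3% and 73.2% of spots on WT arrays, and between 62.5% and 65.1% on KO arrays, were well above background, and no spot was saturated. The precision rests on the 3 arrays in each genotype and on the spread between them. Bach1 itself was at 2.21, 2.48 and 2.59 on the WT arrays, against 1.45, 2.00 and 2.23 for KO 947, 948 and 949. The genotypes overlapped (-0.54 ± 0.24 SE, limma adjusted p = 0.262), and since its place relative to the deleted part is not known here, this probe does not check the labels.

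Of the 9 genes tested, Cd300lf alone passed the limma test, with more transcript in KO, and the other 8 did not pass. In the whole fit 3.41% of genes passed, 1.14% as higher and 2.27% as lower in KO. Cd300lf and Havcr2 were higher on every KO array than on any WT array and Tyro3 was lower, so 3 of 9 did not overlap, where 26.9% of all genes did not (13.4% higher and 13.5% lower in KO). In the other 6 genes the genotypes overlapped. The median difference of the 9 genes was 0.13, against -0.01 over all genes tested, with 6 positive and 3 negative. The share without overlap is thus near that over all genes. With the slide as a block none of the 9 passed, where 0.534% of all genes did. An interaction of genotype with labelled sex, added after the data were seen, passed limma for 0 of the 9 genes, with 0 under an unadjusted p of 0.05, and for 0.0254% of all genes.

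**Figure D1:**
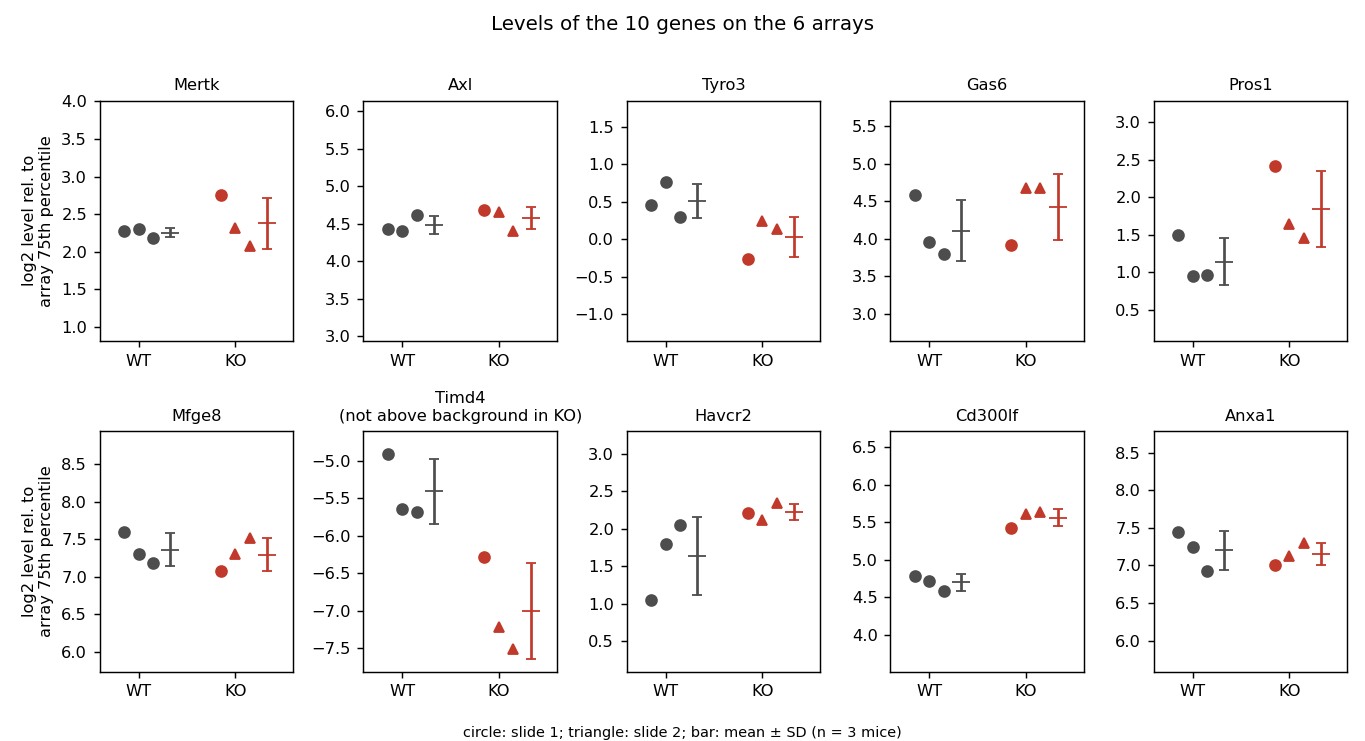
Log2 level relative to the array's 75th percentile (vertical axes, all of the same span) for each of the 10 genes, with 1 point per mouse, WT in grey and KO in red, circles for the slide that holds both genotypes and triangles for the other, and bars for the mean ± SD of 3 mice. Cd300lf lies at 4.58 to 4.79 in WT and 5.43 to 5.64 in KO, whereas the points of Axl, Mfge8 and Anxa1 mix.

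Cd300lf encodes CLM-1, an inhibitory receptor of myeloid cells that binds phosphatidylserine. Its brightest probe read 4.79, 4.72 and 4.58 in WT 1, 2 and 3, against 5.43, 5.61 and 5.64 in KO 947, 948 and 949. Every KO array thus lay above every WT array, and the gap between the groups was larger than the spread within either (SD 0.11 in both). The gene rose 1.82-fold in KO (log2 difference 0.86 ± 0.14 SE, n = 3 mice per genotype, 95% interval 0.52 to 1.21, limma adjusted p = 0.0344). The other probes of the gene also separated the genotypes. A probe for another of its transcripts read 4.07, 4.11 and 3.98 in WT and 4.80, 4.98 and 5.15 in KO (0.92 ± 0.16 SE, limma adjusted p = 0.0381 with each probe tested on its own). The third probe read 3.14, 3.29 and 3.03 in WT and 3.81, 4.01 and 3.74 in KO (0.70 ± 0.16 SE), and did not pass on its own (limma adjusted p = 0.0709). The 3 probes therefore had the same direction and sizes between 0.70 and 0.92.

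The size of the Cd300lf difference was steadier than its call. Blocked on the slide, so that only KO 947 is set against the WT mice, it was 0.74 ± 0.18 SE and did not pass (limma adjusted p = 0.142). The call was also lost when any WT array was left out (limma adjusted p = 0.0993, 0.0995 and 0.087 for WT 1, 2 and 3, with differences of 0.91, 0.87 and 0.81). Leaving out KO 948 or KO 949 lost it too (limma adjusted p = 0.132 and 0.111, with differences of 0.84 and 0.83). It held without KO 947 (0.93).

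Cd300lf lies on chromosome 11 in a cluster of related genes, and 6 further Cd300 genes had been listed. Of these Cd300ld, an activating receptor of the same family, also rose. Its probe read 2.96, 2.86 and 3.01 in WT 1, 2 and 3, against 4.37, 4.22 and 4.20 in KO 947, 948 and 949. All KO arrays lay more than 1 log2 unit above all WT arrays. The rise was 2.5-fold (1.32 ± 0.14 SE, 95% interval 0.99 to 1.65, limma adjusted p = 0.0104), and it passed with the slide as a block as well (1.43, limma adjusted p = 0.0471). It did not pass without WT 1 (1.33, limma adjusted p = 0.0512), on the slide with both genotypes alone (1.43, limma adjusted p = 0.0827) or on arrays labelled male (1.39, limma adjusted p = 0.0627).

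The remaining Cd300 genes did not pass, and they did not share a direction. Cd300lb, another phosphatidylserine receptor, read 1.91, 2.20 and 2.30 in WT and 2.60, 2.39 and 2.35 in KO (0.32 ± 0.17 SE, limma adjusted p = 0.344). Cd300a, an inhibitory receptor, had a difference of -0.11 and Cd300c2 one of 0.11, both with overlapping genotypes. Cd300e spread most, from -1.02 to 0.44 in WT and from -3.38 to -1.21 in KO (-1.88 ± 0.60 SE, limma adjusted p = 0.146). Cd300lg was at -1.39 to -0.89 in WT and -1.51 to -1.42 in KO. Without passing, Cd300lb was higher and Cd300e and Cd300lg were lower on every KO array than on any WT array. Over all genes 26.9% did not overlap in this way. Cd300ld4, which was added after its values were seen, had a difference of -0.04. Within this family the test was thus passed by Cd300lf and Cd300ld.

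**Figure D2:**
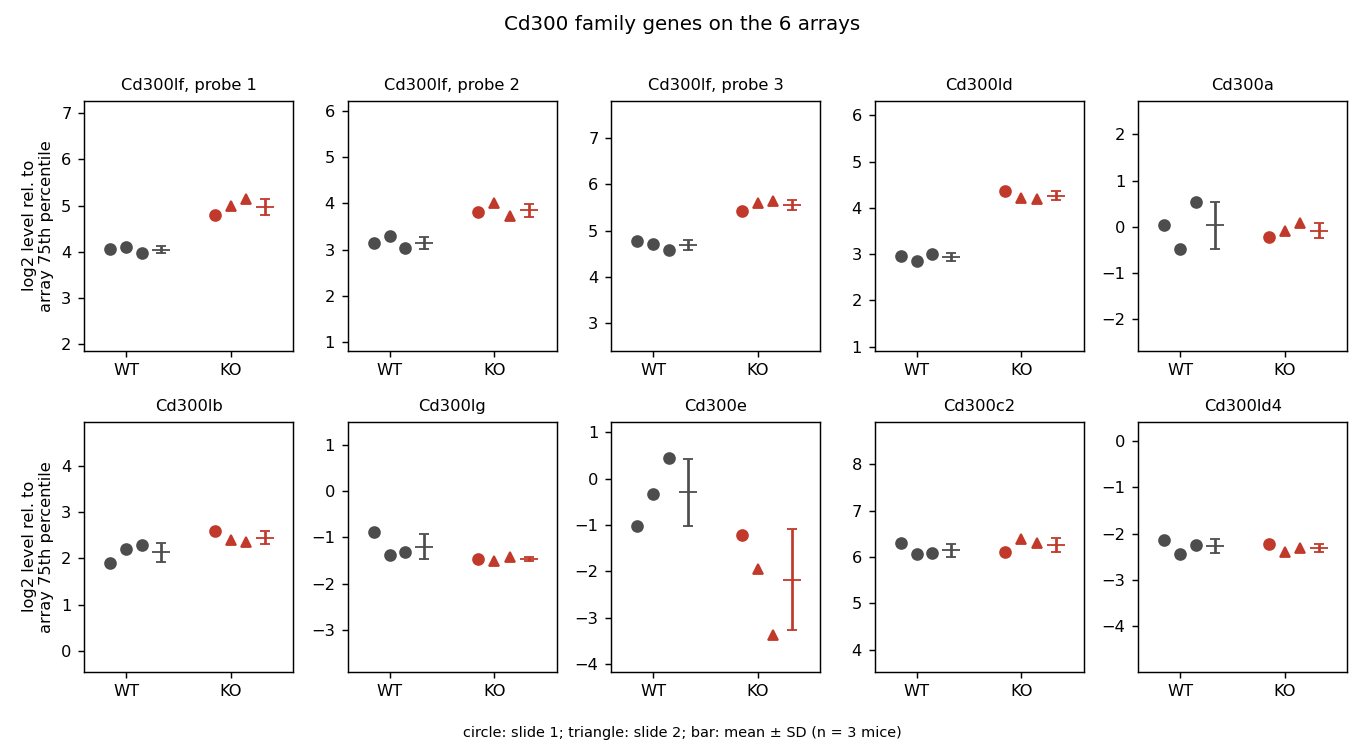
Log2 level relative to the array's 75th percentile (vertical axes, all of the same span) for the 3 Cd300lf probes and 7 other Cd300 genes, with 1 point per mouse, WT in grey, KO in red, circles for the slide with both genotypes, triangles for the other, and bars for the mean ± SD of 3 mice. KO points lie above WT points for the Cd300lf probes, Cd300ld and, by a small gap, Cd300lb. They lie below for Cd300e and Cd300lg, and mix with them for Cd300a, Cd300c2 and Cd300ld4.

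The promoter windows of the Cd300 genes that rose are shown because Bach1 acts on DNA, as a dimer with small Maf proteins. RefSeq promoter windows (GRCm38.p6) were held for all 10 genes, and the 250 bases before the start were searched on both strands. In the first 2 sequences the capitals mark a match to GAGGAA, a core of sites for the myeloid factor PU.1. These sequences are Cd300lf (chr11:115133993-115134242, minus strand) and Cd300ld (chr11:114989887-114990136, minus strand). In the stretch from Havcr2 (chr11:46454720-46454748, plus strand) the capitals mark a match to TGANTCA. This is a loose pattern of the AP-1 type, in which N is any base. The Maf element searched holds this pattern with G at N. The Havcr2 match has T there, so it does not carry that part of the Maf element.
Cd300lf: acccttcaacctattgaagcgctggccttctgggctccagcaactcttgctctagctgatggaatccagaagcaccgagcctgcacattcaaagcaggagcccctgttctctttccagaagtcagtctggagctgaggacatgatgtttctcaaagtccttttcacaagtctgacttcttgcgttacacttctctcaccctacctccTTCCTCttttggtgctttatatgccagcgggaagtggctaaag
Cd300ld: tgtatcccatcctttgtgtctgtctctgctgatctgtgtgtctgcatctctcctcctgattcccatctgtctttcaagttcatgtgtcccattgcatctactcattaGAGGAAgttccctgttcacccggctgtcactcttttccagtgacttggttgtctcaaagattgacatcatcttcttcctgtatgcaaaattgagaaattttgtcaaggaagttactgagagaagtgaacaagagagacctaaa
Havcr2: ttcctttttgtTGATTCAtgtaataaacc
The antioxidant response element core TGACNNNGC was in none of the 10 windows, against 10.2% of all 32851 windows of this length, and the longer Maf recognition element was in none, against 0.134%. TGANTCA, with any base at N, was in 1 of 10, that of Havcr2 at base -200, against 6.75%. GAGGAA was in 5 of 10, against 23.3%, and in Cd300lf its first base lies at -43 on the opposite strand. These are matches of letters in a short window, and the motifs were chosen with the sequences in view.

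The TAM receptors did not pass the test. Mertk, the receptor that drives engulfment in resting macrophages, read 2.27, 2.30 and 2.18 in WT 1, 2 and 3, against 2.75, 2.32 and 2.07 in KO 947, 948 and 949. KO 947 was the highest array and KO 949 the lowest, so the KO mice spread around the WT mice (0.13 ± 0.20 SE, 95% interval -0.34 to 0.61, limma adjusted p = 0.753). Blocked on the slide the Mertk difference was 0.50 ± 0.19 SE (limma adjusted p = 0.255), and without KO 947 it was -0.05. Axl, the TAM receptor that inflammatory stimuli raise, read 4.43, 4.40 and 4.62 in WT and 4.68, 4.66 and 4.40 in KO. Its genotypes overlapped, and the interval of the difference ran from -0.27 to 0.46 (0.09 ± 0.15 SE, limma adjusted p = 0.775, and 0.19 when blocked on the slide). For Axl a change of more than 1.37-fold upward or to less than 0.828 of the WT level lies outside that interval.

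Tyro3, the TAM receptor best known from the nervous system, read 0.46, 0.76 and 0.30 in WT 1, 2 and 3, against -0.27, 0.24 and 0.13 in KO 947, 948 and 949. The KO arrays were all below the WT arrays, with a gap of less than the SD within either genotype (0.23 and 0.27). The difference of -0.48 ± 0.20 SE did not pass (limma adjusted p = 0.248), nor did that blocked on the slide (-0.78, limma adjusted p = 0.188), and scaling to the array median gave -0.26. A second, dim Tyro3 probe read -4.24, -4.91 and -3.99 in WT and -4.21, -5.31 and -5.44 in KO, with overlap (-0.60 ± 0.39 SE).

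The ligands of the TAM receptors did not pass either. Gas6, which binds all 3 receptors, read 4.58, 3.96 and 3.80 in WT 1, 2 and 3, against 3.92, 4.68 and 4.68 in KO 947, 948 and 949. WT 1 lay close to the pair of KO mice on the other slide, and KO 947 lay with WT 2 and 3. The difference was 0.32 ± 0.30 SE over all arrays (limma adjusted p = 0.594) and -0.19 when blocked on the slide, so its sign changed. Leaving out 1 array at a time gave 0.16 (without WT 3) to 0.57 (without KO 947). Pros1 encodes protein S, an anticoagulant that also binds Tyro3 and Mertk. It read 1.49, 0.95 and 0.97 in WT and 2.42, 1.64 and 1.46 in KO. KO 947 was the highest, and KO 949 fell just below WT 1. The difference of 0.70 ± 0.29 SE had an unadjusted p of 0.0495 in limma and did not pass (adjusted p = 0.243). Blocked on the slide, and so resting on KO 947, it was 1.28 (limma adjusted p = 0.111), and without KO 947 it was 0.41.

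Mfge8, the bridge from phosphatidylserine to integrins, was bright on every array. It read 7.60, 7.30 and 7.18 in WT and 7.07, 7.30 and 7.51 in KO, so that both genotypes covered almost the same range. Its difference was -0.07 ± 0.19 SE (95% interval -0.51 to 0.38, limma adjusted p = 0.876), and its sign changed with the scaling (0.15 with scaling to the array median).

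**Figure D3:**
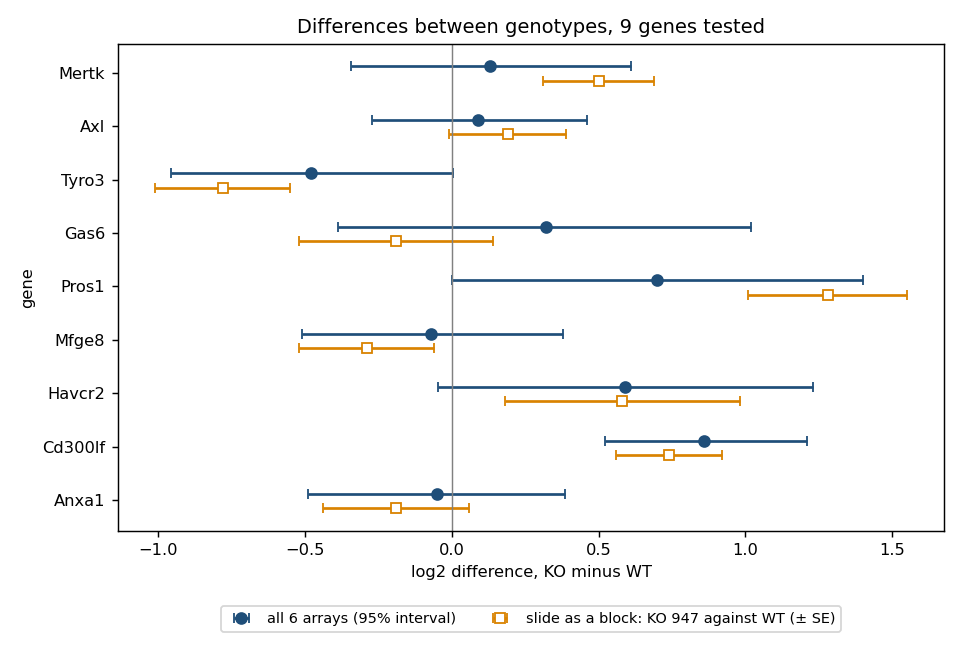
Log2 difference KO minus WT (horizontal axis) for the 9 genes tested (vertical axis), as filled circles with the 95% interval of the limma fit over all 6 arrays, and as open squares ± SE blocked on the slide, so that only KO 947 is set against WT. The interval of Cd300lf runs from 0.52 to 1.21, that of Pros1 reaches down to 0, and Gas6 lies on opposite sides of 0 in the 2 fits.

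Among the TIM receptors, Havcr2 encodes Tim-3, a phosphatidylserine receptor and checkpoint molecule of myeloid cells and T cells. It read 1.05, 1.79 and 2.05 in WT 1, 2 and 3, against 2.21, 2.12 and 2.34 in KO 947, 948 and 949. The KO arrays lay close together above the WT arrays, and WT 1 was the lowest array. The difference was 0.59 ± 0.27 SE (95% interval -0.05 to 1.23) and did not pass (limma adjusted p = 0.276), nor did it when blocked on the slide (0.58). Without WT 1 it was 0.30.

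Timd4, which encodes the phosphatidylserine receptor Tim-4 of resident tissue macrophages, was near or below the detection limit. Its probe read -4.91, -5.64 and -5.68 in WT 1, 2 and 3, of which 2 were well above background, and -6.28, -7.21 and -7.51 in KO, of which none was. Depending on the array, the dimmest probe well above background was at -6.16 to -5.68. Timd4 was therefore left out of the fit. With each KO array set no lower than its dimmest probe well above background, the mean of the 3 measured WT values was 1.46-fold higher. Of those WT values 1 was itself not well above background, although each lay above the dimmest such probe of its array. That level is therefore no strict limit, and 1.46-fold is a nominal bound that rests on that measured value. Fitted without the filter on dim probes the measured values differed by -1.59 ± 0.38 SE, which did not pass (limma adjusted p = 0.107).

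Anxa1, a phosphatidylserine-binding annexin that signals through formyl peptide receptors and promotes resolution of inflammation, was bright throughout. It read 7.45, 7.24 and 6.92 in WT 1, 2 and 3, against 7.01, 7.13 and 7.30 in KO 947, 948 and 949. The KO arrays lay inside the range of the WT arrays (-0.05 ± 0.18 SE, 95% interval -0.49 to 0.39, limma adjusted p = 0.903). A second Anxa1 probe gave -0.04 ± 0.16 SE. The sign of so small a difference changed with quantile normalization (0.04) and with scaling to the array median (0.17).

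The rest of the clearance pathway was read from 11 lists of 112 genes, of which 104 were tested. S1pr1 and Cd300ld rose, none fell and 102 did not pass, or 1.92% called against 3.41% of all genes. The median difference was 0.03. S1pr1, a receptor for the chemoattractant lipid sphingosine 1-phosphate that dying cells release, was among 12 receptors of find-me and do-not-eat-me signals. It read 0.35, -0.12 and 0.11 in WT 1, 2 and 3, against 2.39, 1.93 and 1.59 in KO 947, 948 and 949. Even the lowest KO array exceeded the highest WT array, and it rose 3.62-fold (1.86 ± 0.24 SE, limma adjusted p = 0.0161). Blocking on the slide gave 2.27 (limma adjusted p = 0.045). Leaving out WT 1, WT 2 or KO 948 ended the call (limma adjusted p = 0.0536, 0.0638 and 0.0615) at differences of 1.97, 1.74 and 1.88. So did fitting the slide with both genotypes alone (2.27, limma adjusted p = 0.0634) or the arrays labelled male (2.04, limma adjusted p = 0.0507).

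None of the 15 other phosphatidylserine receptors tested passed limma, and 5 had an unadjusted p under 0.05. Over all the clearance lists, 20 of 104 genes tested had such a p. The share of all genes under that p was not counted, so no result is read from such counts in any list. Ager, the receptor for advanced glycation end products, was well above background on all 3 WT arrays (mean -5.03). No KO array was (measured mean -6.44), so only a nominal bound is given, 1.91-fold lower in KO. The measured values of Ager did not pass (limma adjusted p = 0.065). Adgrb1, which signals engulfment through Elmo proteins, had a difference of -0.83 ± 0.27 SE (limma adjusted p = 0.149). Of 9 other bridging molecules none passed and 3 had an unadjusted p under 0.05. C1qa, a chain of the complement protein C1q that coats dying cells, read 6.14, 5.60 and 5.88 in WT and 5.10, 4.50 and 4.14 in KO. These values did not overlap, but the difference of -1.29 ± 0.28 SE did not pass (limma adjusted p = 0.0604), and blocked on the slide it was -0.77. C1qb, another chain, had a difference of -0.62 ± 0.20 SE (limma adjusted p = 0.148).

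No gene passed limma among the 15 of the engulfment machinery (2 with an unadjusted p under 0.05), the 16 of phagosome maturation (1) or the 8 of sterol sensing and efflux (0). The largest differences there were those of the lipid transporter Abca7 (-0.47) and the Rac activator Elmo1 (0.45), of the lysosomal membrane protein Lamp2 (0.44) and the nuclease Dnase2a (-0.33), and of the sterol-sensing receptor Nr1h3 (0.56) and Pparg (0.38). The 7 genes of TAM shedding and signalling included the protease Adam10 (0.60 ± 0.16 SE, limma adjusted p = 0.105) and the feedback inhibitor Socs1 (0.47), and none passed (1 with an unadjusted p under 0.05). Of the vitamin K carboxylation genes that activate Gas6 and protein S, Ggcx, well above background on 2 of 3 KO arrays, had a difference of -0.60 and Vkorc1l1 of 0.37, with 0 of 3 under an unadjusted p of 0.05 and none passing limma. Among 12 annexins, S100 partners and formyl peptide receptors none passed limma (1 with an unadjusted p under 0.05), with Anxa3 at 0.73 ± 0.21 SE and Anxa11 at 0.57 ± 0.42 SE. Anxa11 read 2.20 to 2.55 in WT, against 1.94, 3.55 and 3.39 in KO 947, 948 and 949. Blocked on the slide, its difference was -0.45. Of the Tim-3 ligands and adaptors, Lgals9, which encodes galectin-9, had a difference of 0.39 and Bag6 of -0.34, and 0 of 3 passed limma (1 with an unadjusted p under 0.05).

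**Figure D4:**
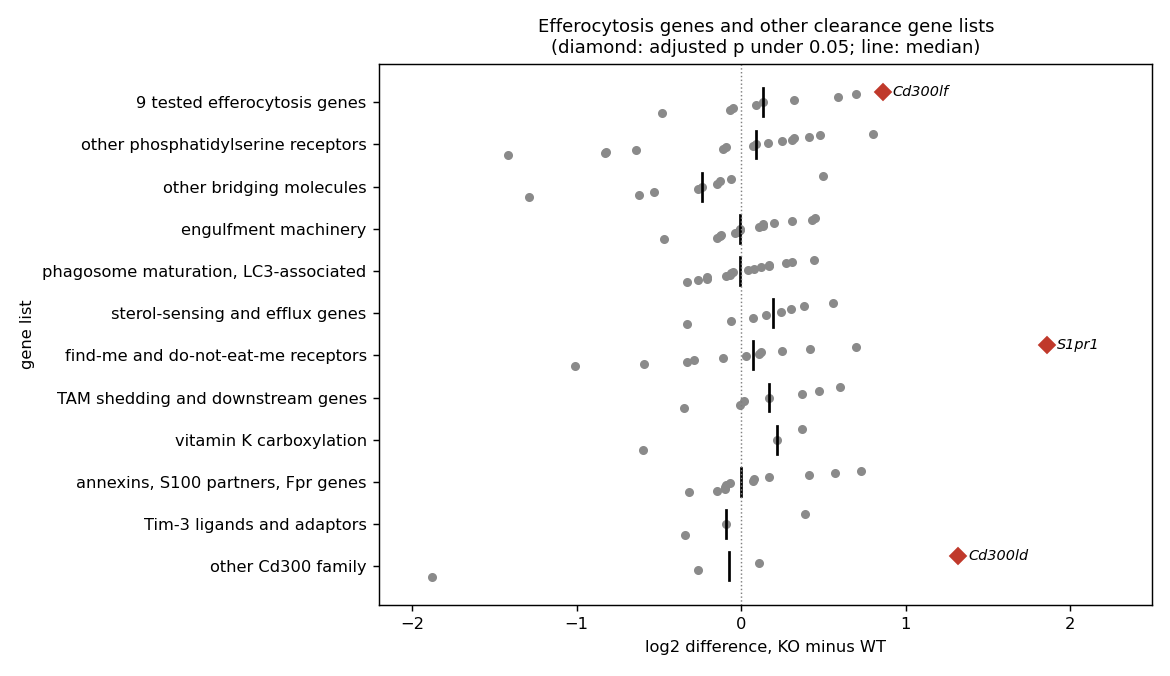
Log2 difference KO minus WT (horizontal axis) of the 9 efferocytosis genes tested and of the genes of 11 other clearance lists (rows), with grey circles for genes that did not pass, red diamonds for genes with an adjusted p under 0.05 in the limma fit over all genes, and a black line at each list's median. The leftmost point of the other phosphatidylserine receptors is Ager, whose KO values were not well above background. Diamonds appear for Cd300lf, S1pr1 (1.86) and Cd300ld (1.32), and the medians of the other lists lie between -0.24 and 0.22.

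The genes with levels most like those of Cd300lf over the 6 arrays, out of 15700 with a full set of values, were Npas2 and F5 (Pearson r = 0.9971 each) and Zcchc24 (r = 0.9963). Such values rest on 6 arrays in which the genotypes separate, and they are a description. F5, which encodes coagulation factor V, read -0.88, -0.90 and -1.05 in WT 1, 2 and 3, against 0.41, 0.71 and 0.80 in KO 947, 948 and 949. Npas2, a circadian transcription factor, was at -6.07 to -5.89 in WT and at -5.37 to -5.17 in KO. No WT array was well above background, so the likeness of Npas2 rests partly on dim values. Zcchc24 read 0.88, 0.86 and 0.17 in WT and 2.79, 3.26 and 3.19 in KO.

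Markers of the cells in these cultures were read beside the results. None of 7 macrophage markers passed limma, and none had an unadjusted p under 0.05. Their summed signal, as a multiple of the array's 75th percentile, was 340 to 387 in WT and 363 to 394 in KO. In the lists of other cells some markers passed as lower in KO and none as higher, where 2.27% of all genes passed as lower. Of the dendritic cell markers 4 of 10 did (summed signal 477 to 561 in WT and 319 to 348 in KO), and of the stromal markers 3 of 10 tested (12 to 44.9 in WT and 4.52 to 6.62 in KO). Of the markers of eosinophils, mast cells and basophils 3 of 10 tested passed (25.8 to 55.5 in WT and 7.16 to 23.2 in KO), with single differences up to 0.47. Of the neutrophil markers 1 of 11 passed (268 to 353 in WT and 181 to 232 in KO), with single differences up to 0.20. Markers that passed as lower included Ccr7 (-2.60), Cd83 (-1.99) and Ciita (-1.89) of dendritic cells, Sparc (-7.84), Col1a1 (-5.62) and Col1a2 (-5.55) of stroma, Prss34 (-3.49) and Kit (-3.23) of basophils and mast cells, and S100a9 (-1.01) of neutrophils. Col1a1 and Kit were well above background on 2 of 3 KO arrays. Mcpt8, which also passed, was well above background on all 3 WT arrays and on no KO array. Only a nominal bound is therefore given, 20-fold lower in KO. The stromal marker Lum and the mast cell and basophil marker Ms4a2 were not well above background on any array of either genotype, and Pdgfra and Fcer1a on none of the KO arrays. Lymphocyte (2.76 to 3.76 against 2.43 to 2.64) and endothelial markers (1.82 to 2.37 against 1.69 to 2.11) had no gene that passed limma, with 1 of 6 and 0 of 3 under an unadjusted p of 0.05. The part of these cells in the values of Cd300lf, Cd300ld, S1pr1 or the other genes was not tested. In a whole culture, fewer cells of a type and less RNA per cell cannot be told apart.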

How the data were processed

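The deposited scanner files hold spot intensity values of 62976 spots per array, extracted with Agilent Feature Extraction (10.7.3.1 per the file headers, though the submitters' processing notes say 9.1). Agilent's processed signal is background-subtracted and detrended within each array, with no scaling between arrays, per the file headers. The array design uses mm9, per the file headers, and 26413 of 55681 were named through their RefSeq accession (GRCm38.p6 table). The authors' deposited table gives log2 values of 3215 probes, centred per probe, whose earlier scaling is unstated. It served as an alternative only.

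The log2 processed signal was reduced by the log2 of its array's 75th percentile. Outlier spots (0.20% to 0.39%) were left out and spots of a probe averaged. Probes well above background on 3 or more of the 6 arrays were kept, and the brightest such probe stood for its gene. Genotypes were compared with limma 3.58.1 (R 4.3.3; lmFit and eBayes), two-sided, with no covariate, after the fit was tested on simulated data. The labels number the samples and give each a mouse's sex, but do not say more on how cultures were kept apart, so p-values measure the spread between these samples. Of the 15736 genes, 35 lacked 1 value.

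For a bound, each dim array was given its own value or that of its dimmest probe well above background, whichever was higher. Their mean was set against the bright group's mean. Probes brighter than that level were not always well above background, so each such bound is nominal. The named genes are the 10 members, up to 4 genes per clearance list past the threshold or else the 2 furthest from 0, up to 3 per marker list past the threshold, Bach1, and the 3 genes most correlated with a member that passed. Members and lists were chosen with earlier results of these data known. Alternatives are given in the closing section. Normexp was run on median spot signals.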

Additional observations from a re-analysis of the deposited data

How the results depend on the processing

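With the settings tried one at a time, the count of efferocytosis genes past the threshold stayed at 1 (Cd300lf) with normexp, with scaling to the median of the array, with quantile normalization, with a filter on all 6 arrays, with outlier spots kept in, with probes averaged by gene or taken singly, with a trended and robust eBayes, at a threshold of 0.1 and in the authors' deposited table. It was 0 with no filter on dim probes, the slide as a fixed or a random block, the slide with both genotypes alone, sex as a covariate and arrays labelled male only, with limma adjusted p-values for Cd300lf of 0.053, 0.142, 0.0584, 0.254, 0.0669 and 0.203, and from 0 to 1 when leaving out 1 array. Cd300lf kept its direction in 22 of 22 alternatives (0.74 to 1.08), as Cd300ld (1.12 to 1.54) and S1pr1 (1.65 to 2.27) did, and passed in 11, 19 and 17. For these genes every KO array lay above every WT array, so fits on fewer arrays could not change the direction. Some other settings reuse the same estimate, so the 22 alternatives are not independent checks. The counts of 11, 19 and 17 include the threshold of 0.1, which is the same fit, so passing there was fixed. They also include the table of the authors, which holds probes that separate the groups, so passing there is no evidence. Of the efferocytosis genes that table holds only Cd300lf, so the count there could not exceed 1. The count over all genes, 537, became 343 with quantile normalization, 275 with no filter, 84, 255 and 24 with the slide as a fixed block, as a random block and for the slide with both genotypes alone, 305 with sex as a covariate, 182 on arrays labelled male only, 810 with trend and robust, 1151 at a threshold of 0.1, 1741 in the authors' table, and 77 (without WT 1) to 900 (without KO 947) when leaving out 1 array. Scaling to the array median moved the median of all genes to 0.21 and the share of higher calls from 33.5% to 62.5%.

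Signs changed only among differences that did not pass. Anxa1 was at 0.04, 0.17 and 0.0029 with quantile normalization, median scaling and normexp, and from -0.19 to 0.07 when leaving out 1 array (above 0 without WT 1 or KO 947). Mfge8 was at 0.02, 0.15 and 0.04 in the same 3 settings and from -0.18 to 0.05 when leaving out 1 array (above 0 without WT 1 or KO 947). Axl was at -0.12 with normexp, Gas6 at -0.19 with the slide as a block or the 1 slide alone, and Mertk from -0.05 (without KO 947) to 0.29 when leaving out 1 array. The cause of these shifts was not tested. No paired analysis was possible because the genotypes share no replicate numbers. Signal over background limits Timd4 and the second Tyro3 probe, which lie near the detection limit.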

Other observations

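The comparison can also be read within each labelled sex, a split added after the data were seen, with 2 males and 1 female per genotype. For Anxa1 the KO minus WT difference was -0.27 in males and 0.38 in females, for Mfge8 -0.27 and 0.34, for Axl 0.25 and -0.22, and for Mertk 0.25 and -0.11. For Gas6 it was 0.03 and 0.88, for Pros1 0.81 and 0.49, for Havcr2 0.74 and 0.29, and for Tyro3 -0.63 and -0.17. For Cd300lf it was 0.77 in males and 1.06 in females. Every KO array of Cd300lf lay above every WT array, so any split had to give a rise in each part. The interaction of sex and genotype in limma, female minus male, ran from -0.47 for Axl to 0.85 for Gas6, and no result is read from it. With 1 female per genotype, these female values have no replicate.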
